A study of Mus musculus with 21 samples.

Results

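A set of 10 genes of granule cell migration was followed across the sorted medulloblastoma cells: the chemokine Cxcl12 and its receptor Cxcr4, the astrotactins Astn1 and Astn2, Reelin (Reln) with its receptors Vldlr and Lrp8 and its adaptor Dab1, and the neurotrophin receptors Ntrk2 and Ntrk3. Every probe set whose platform symbol is 1 of these 10 genes was taken, 38 of the 34945 probe sets with 1 symbol (18193 genes). Of the 38, 32 passed the filter on dim signals, and all 10 genes had a probe set among them. Values are array signals in arbitrary units, with each array scaled to the same trimmed mean. Where a gene had several probe sets, its brightest was used unless another is named.

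RNA came from primary tumour cells of the cerebellum of Patched mice, hybridised to 21 mouse arrays. Patched (Ptch1) holds the Hedgehog pathway in check, and mice that lose it can form medulloblastomas from granule neuron precursors. The groups were Math1-GFP tumour cells positive for CD15 (4 arrays), Math1-GFP cells negative for CD15 (5 arrays), conventional Patched tumour cells positive for CD15 (6 arrays) and conventional cells negative for CD15 (6 arrays). CD15 is a carbohydrate epitope of the cell surface on which cells can be sorted. Math1, also named Atoh1, marks granule neuron precursors, and GFP is a fluorescent protein; the descriptions call the Math1-GFP tumours conventional too, and the titles were followed. Age, strain, the second Ptch1 allele and the sorting gate are not given in the sources used here. The labels do not tie each sample to an animal of its own. The p-values therefore reflect variation among samples that may be partly technical. Titles of all Math1-GFP arrays end in le2 and those of all conventional arrays in le1, marks whose meaning the labels do not give, so tumour model and whatever the marks stand for cannot be told apart. Of 11 granule lineage markers on the array, 9 passed the filter in these arrays, among them Atoh1, Zic1, Pax6 and Neurod1; Gabra6, of mature granule neurons, and Meis2 were below it. Of 11 neutrophil markers on the array, 5 were below the filter, and none of the others was called between CD15 fractions.

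In the developing cerebellum, granule neuron precursors divide under the meninges and then migrate inwards along Bergmann glia. Cxcl12 from the meninges attracts precursors through Cxcr4 and keeps them at the surface. Astrotactin 1 is an adhesion protein of the migrating neuron on the glial fibre, and astrotactin 2 regulates how much of it stands on the cell surface. Reelin is secreted by granule cells and acts on Purkinje cells through Vldlr and Lrp8, which pass the signal to Dab1. Ntrk2 and Ntrk3 are the receptors of BDNF and of neurotrophin 3.

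In conventional tumours, Reln and Astn1 were lower in CD15 positive cells than in CD15 negative cells, by 1.71-fold and 1.68-fold. The other 8 genes did not pass the test there, and none of the 10 passed in Math1-GFP tumours. Between tumour models the genes differed more widely. Reln, Ntrk2, Ntrk3, Astn1 and Cxcr4 were higher and Cxcl12 was lower in Math1-GFP cells. The Cxcl12 difference rested on some of the conventional arrays, and that of Cxcr4 was at the edge of the threshold.

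Fold changes are differences of log2(signal + 32), which understate the change of dim genes, with standard errors (SE) from a limma fit of the 4 group means over 12367 genes and Benjamini-Hochberg adjustment over these genes. A gene is called where its adjusted p is under 0.05. The CD15 difference in conventional tumours called 8.13% of all genes tested and 2 of the 10 genes, both lower. In Math1-GFP tumours it called 0.0404% of all genes (5 of 12367, with 1073 at an unadjusted p under 0.05) and 0 of the 10, of which 0 had an unadjusted p under 0.05. Averaged over both models it called 9.74% of all genes and again Reln and Astn1. The test of whether the CD15 difference itself differs between models called 0% of genes in limma, with 279 at an unadjusted p under 0.05. The median log2 fold change of the 10 genes was -0.08 in conventional tumours, against -0.02 over all genes. Math1-GFP against conventional cells, averaged over CD15 fractions, called 39.2% of all genes and 6 of the 10, so such a call is common there. Conventional arrays of both fractions that share a title number resemble each other but entered the fit as separate samples. The standard errors and p-values of this averaged difference between models can therefore be too small. The median was 0.50 over the 10 genes and -0.01 over all genes.

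**Figure D1:**
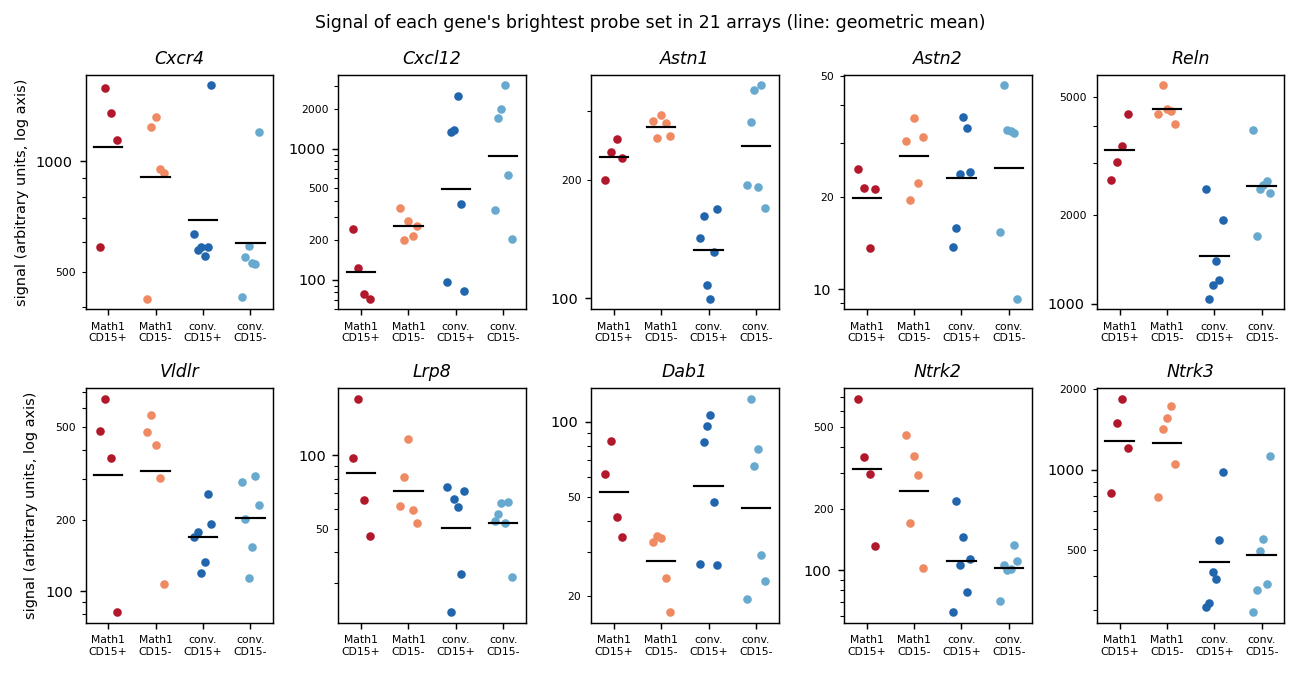
Signal of each gene's brightest probe set (arbitrary units, log axis) in the 21 arrays, with 1 panel for each gene; points are arrays, lines are geometric means, and the groups are Math1-GFP CD15 positive, Math1-GFP CD15 negative, conventional CD15 positive and conventional CD15 negative. Reln in Math1-GFP cells (2630 to 5490) sits above the conventional cells of the same fraction, while Cxcl12 in conventional cells spreads from 82.4 to 3060.

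Reln and Astn1 were called both between CD15 fractions and between tumour models. For these 2 genes the 250 bases before the start of the gene are printed, 5′ to 3′ on the strand of the gene, from RefSeq on GRCm38.p6. Astn1 is at chr1:158362054-158362303 on the plus strand and Reln at chr5:22344706-22344955 on the minus strand. Capitals mark matches to CANNTG, the E-box to which Atoh1 and other bHLH factors can bind.
Astn1: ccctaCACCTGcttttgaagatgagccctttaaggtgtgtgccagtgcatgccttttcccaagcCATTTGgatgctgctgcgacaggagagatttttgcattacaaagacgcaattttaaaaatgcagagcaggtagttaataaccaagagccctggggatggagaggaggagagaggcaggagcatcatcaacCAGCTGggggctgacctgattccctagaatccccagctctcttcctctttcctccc
Reln: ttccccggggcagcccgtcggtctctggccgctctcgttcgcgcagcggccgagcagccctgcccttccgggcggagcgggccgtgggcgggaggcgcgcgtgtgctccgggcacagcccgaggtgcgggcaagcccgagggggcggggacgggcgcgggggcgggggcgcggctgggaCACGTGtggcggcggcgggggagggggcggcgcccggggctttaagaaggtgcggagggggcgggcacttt
The windows differ in composition. GC content was 50.4% with 2 CpG in Astn1 and 80.0% with 37 CpG in Reln, against a median GC of 52.4% over 32851 such windows of the mouse annotation. CANNTG, which reads the same on both strands, occurred 3 times in Astn1 and 1 time in Reln, and at least once in 66.2% of all windows. A pair of further motifs was searched on both strands: TTGGC, a core of the NFI site (41.5% of all windows), and TGGGTGGTC, a form of the Gli site (0.225%). Neither set of letters occurs in these 2 windows. A match is a description of the letters only. Of the 10 genes, 9 were in the promoter table; Ntrk3 is named only.

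Reln, the ligand, had signals of 1040, 1300 and 2450 (lowest, median and highest) in CD15 positive and 1690, 2480 and 3870 in CD15 negative cells of conventional tumours. The ranges overlap, because the unnumbered CD15 positive array (2450) and number 6 (1920) exceed the lowest CD15 negative array. The log2 fold change was -0.77 ± 0.20 (SE, 95% interval -1.18 to -0.36, limma adjusted p = 0.019). The title numbers 2 to 6 occur in both fractions, and in 5 of 5 same-numbered pairs the CD15 positive array had less Reln, by log2 differences between -1.10 and -0.29. The unnumbered arrays had 2450 in CD15 positive and 3870 in CD15 negative cells, the highest of each conventional fraction. Without CD15 positive array 2 the adjusted p of Reln was 0.051. In a fit of only the 2 conventional groups it was 0.061, and with the probe sets of Reln averaged the difference was -0.37 (adjusted p = 0.13). Within arrays 2 to 5, whose titles share a wording, the difference of Reln was -0.92 (adjusted p = 0.0036), and within the unnumbered arrays and number 6 it was -0.47 (adjusted p = 0.72).

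In Math1-GFP tumours Reln had 2630, 3020, 3430 and 4400 in CD15 positive and 4370, 5490, 4560, 4480 and 4050 in CD15 negative cells. Of the 4 CD15 positive arrays, 3 lie under every CD15 negative array, and array 9 (4400) lies among them. The log2 fold change was -0.46 ± 0.23 (SE, 95% interval -0.94 to 0.02, limma unadjusted p = 0.059 and adjusted p = 0.60). The difference from that of conventional tumours was 0.31 ± 0.30 (limma adjusted p = 1), so the CD15 differences of Reln were not shown to differ between models. Averaged over models it was -0.62 ± 0.15 (limma adjusted p = 0.012). With the probe sets of Reln averaged it was -0.39 (adjusted p = 0.027), and with the unnumbered arrays and number 6 alone of the conventional arrays it was -0.47 and not called (adjusted p = 0.16).

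Between models, every Math1-GFP array had more Reln signal than every conventional array of the same CD15 fraction. In CD15 positive cells the lowest Math1-GFP array had 2630 and the highest conventional array 2450, and in CD15 negative cells 4050 and 3870. The averaged log2 fold change was 1.01 ± 0.15 (SE, 2.02-fold, limma adjusted p = 3.2e-05), and against the unnumbered arrays and number 6 alone Reln differed by 0.60 (adjusted p = 0.019). It was 1.17 ± 0.22 in CD15 positive cells (limma adjusted p = 9.0e-04), a comparison that called 23.1% of all genes and 4 of the 10 (Reln, Astn1, Ntrk2 and Ntrk3, all higher). In CD15 negative cells it was 0.86 ± 0.21 (limma adjusted p = 0.0071), where 18.4% of all genes and 3 of the 10 (Reln, Ntrk2 and Ntrk3, all higher) were called. A dimmer Reln probe set, 1458020_at, had 11.7 to 38.3 in Math1-GFP CD15 positive and 21.5 to 56.8 in Math1-GFP CD15 negative cells, against 5.40 to 14.9 and 0.402 to 13.1 in the conventional fractions. This probe set passed the filter through its Math1-GFP values only, so the difference between models is given with no test. Its CD15 difference in conventional tumours was 0.04.

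Astn1 had 99.9, 137 and 169 in CD15 positive and 170, 238 and 350 in CD15 negative cells of conventional tumours (lowest, median and highest). The ranges do not overlap, but number 6 is at the border, with 169 in CD15 positive and 170 in CD15 negative cells. The log2 fold change was -0.75 ± 0.15 (SE, 95% interval -1.06 to -0.43, limma adjusted p = 0.0042). Numbers 3 and 5 had the largest of the 5 pair differences, -1.42 and -1.22. Astn1 stayed called in each of the 21 fits that left out 1 array. Within arrays 2 to 5 the difference of Astn1 was -1.03 (adjusted p = 0.0014), and within the unnumbered arrays and number 6 it was -0.19 (adjusted p = 0.86).

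In Math1-GFP tumours Astn1 had 201, 236, 255 and 228 in CD15 positive and 283, 257, 293, 280 and 260 in CD15 negative cells. No CD15 positive array reached the lowest CD15 negative array, yet the difference was small beside the shared spread, at -0.23 ± 0.18 (SE, limma adjusted p = 0.78). That spread is wider than the one within the Math1-GFP groups. The standard deviation of the Astn1 log2 values was 0.12 and 0.07 in CD15 positive and negative Math1-GFP cells, against 0.25 and 0.40 in the conventional fractions. The CD15 difference was 0.52 ± 0.23 more positive in Math1-GFP than in conventional tumours, with an unadjusted p of 0.036 and an adjusted p of 1 in limma. Between models Astn1 was 0.40 ± 0.12 higher in Math1-GFP cells (limma adjusted p = 0.010; 0.051 after quantile normalization). In CD15 positive cells, where every Math1-GFP array lies above every conventional array, it was 0.66 ± 0.17 higher (limma adjusted p = 0.0083). In CD15 negative cells the ranges 257 to 293 and 170 to 350 overlap, and the value was 0.14 ± 0.16 (limma adjusted p = 0.58).

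Astn2, its partner, was dim, with 13.6 to 24.8 in Math1-GFP CD15 positive and 19.6 to 36.4 in Math1-GFP CD15 negative cells, against 13.7 to 36.6 and 9.32 to 46.5 in the conventional fractions. It was called in none of the 7 contrasts. Its CD15 difference in conventional tumours was -0.07 (95% interval -0.37 to 0.22), and the intervals leave room for changes that this signal could not show.

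Genes of postmitotic neurons and of mitosis moved with the CD15 fraction as well, and their part in the Reln and Astn1 differences was not tested. In conventional tumours 9 of 11 measured postmitotic neuron markers were called lower in CD15 positive cells (median -1.11), with a summed signal of 6480 to 12300 in CD15 positive and 13000 to 27900 in CD15 negative cells. Of 14 genes of the G2 and M phases 13 were called higher, with sums of 23400 to 30200 in CD15 positive and 9250 to 18500 in CD15 negative cells. Of all genes, 8.13% were called in conventional tumours. In Math1-GFP tumours, where 0.0404% of all genes were called, 0 of the 11 neuron markers and 1 of the 14 mitosis genes were called. The medians there were -0.67 and 0.74. In bulk RNA, fewer cells of a type and less RNA per cell cannot be told apart.

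**Figure D2:**
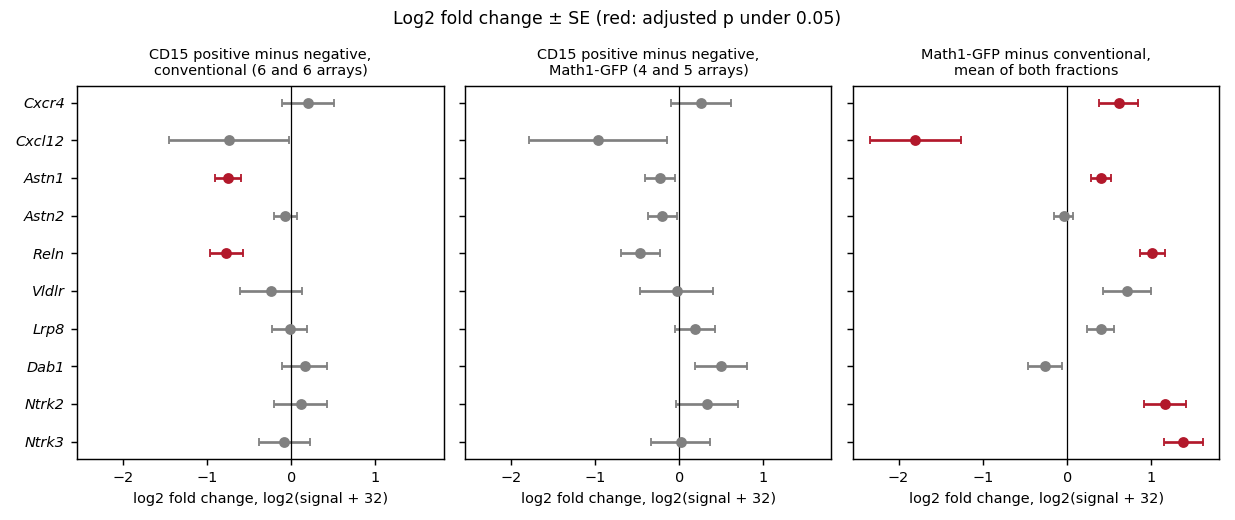
Log2 fold change of log2(signal + 32) for the 10 genes in 3 comparisons; points are limma estimates, bars are standard errors, and red marks an adjusted p under 0.05. Reln and Astn1 are red in the CD15 difference of conventional tumours (-0.77 and -0.75), none in Math1-GFP tumours, and 6 genes between models.

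Vldlr, the lipoprotein-type receptor of Reelin, varied widely among Math1-GFP arrays: 482, 660, 367 and 81.5 in CD15 positive and 476, 564, 417, 302 and 107 in CD15 negative cells. The conventional arrays were tighter, with 119, 174 and 258 in CD15 positive and 114, 217 and 309 in CD15 negative cells (lowest, median and highest). The low Math1-GFP arrays are numbers 9 and 10, both under the lowest conventional array of their fraction. Between models Vldlr differed by 0.71 ± 0.29 (SE, limma adjusted p = 0.054) and was not called. Without CD15 positive array 9 it was 0.99 (adjusted p = 0.0029), and without CD15 negative array 10 it was 0.88 (adjusted p = 0.011). In 3 of 15 other settings Vldlr was called. The 5 Vldlr probe sets past the filter had differences between models of 0.14 to 1.01. In tests of every probe set 2 of the 5 were called higher, a share near the 42.6% of all probe sets. They were 1417900_a_at (1.01, limma adjusted p = 0.0027) and the brightest, 1434465_x_at (0.71, adjusted p = 0.047). The CD15 difference of Vldlr was -0.24 ± 0.37 in conventional and -0.03 ± 0.43 in Math1-GFP tumours.

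Lrp8, the other Reelin receptor (ApoER2), had 97.4, 171, 65.6 and 46.6 in Math1-GFP CD15 positive and 61.7, 81.5, 117, 59.9 and 53.0 in Math1-GFP CD15 negative cells. Conventional cells had 22.8, 63.7 and 74.2 in the CD15 positive and 31.6, 55.6 and 64.3 in the CD15 negative fraction. The groups overlap, with Math1-GFP array 5 the highest of all 21. Between models Lrp8 differed by 0.40 ± 0.16 (SE, limma adjusted p = 0.056). The CD15 difference in conventional tumours was -0.02 (95% interval -0.46 to 0.42).

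Dab1, the cytoplasmic adaptor that is phosphorylated when Reelin binds, varied with the title number of the conventional arrays. Numbers 2, 3 and 4 had 83.1, 96.5 and 106 in CD15 positive and 124, 66.8 and 77.6 in CD15 negative cells, and number 5 had 47.9 and 29.2. Number 6 and the unnumbered arrays had 26.6 and 26.9 in CD15 positive and 23.0 and 19.4 in CD15 negative cells. In Math1-GFP tumours Dab1 had 61.7, 83.9, 41.4 and 34.5 in CD15 positive and 33.1, 34.7, 34.1, 23.7 and 17.3 in CD15 negative cells. The CD15 differences were 0.16 ± 0.27 in conventional and 0.50 ± 0.31 in Math1-GFP tumours, neither called (limma adjusted p = 0.79 and 0.71). In same-numbered conventional pairs the CD15 positive array was the higher in 4 of 5 for this probe set and in 5 of 5 for 1421100_a_at and 1427308_at. For 1427307_a_at it was the higher in 1 of 5 pairs and for 1435577_at in 2 of 5, so the probe sets disagreed. All 5 Dab1 probe sets had positive CD15 differences in Math1-GFP tumours (0.18 to 0.50) and in the average over models (0.03 to 0.33), with 0 called. In conventional tumours alone they ran from -0.11 to 0.30, with 4 positive and 1 negative. Between models the log2 fold change was -0.26 ± 0.20 (limma adjusted p = 0.32), and the 5 Dab1 probe sets were between -0.44 and -0.12, with 0 called. Of 14 other settings, 3 called it (lowest limma adjusted p = 0.011), and the values over these settings ran from -0.58 to 0.36. Among the 3 was the title number as a replicate block (-0.39, adjusted p = 0.013). That block takes the spread between conventional numbers out of the error, which a difference between models needs. The call with the block is therefore not read as a result. Against the unnumbered arrays and number 6 alone the log2 fold change of Dab1 was 0.36 (adjusted p = 0.095). Summed Purkinje cell and interneuron markers also varied with the number. They were 4102, 4372 and 2711 in CD15 positive and 3537, 4784 and 2941 in CD15 negative cells for numbers 2, 3 and 4, and 2512 and 3281 for number 5. Number 6 and the unnumbered arrays had 937.8 and 1517 in CD15 positive and 1157 and 2049 in CD15 negative cells. Of 10 such markers on the array, 7 were below the filter. Purkinje cells express Dab1; their part in its signal was not tested.

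Cxcl12 differed widely among conventional tumours, and in the same order in both fractions. Numbers 2 to 5 had 1340, 1390, 2510 and 379 in CD15 positive and 1730, 2010, 3060 and 627 in CD15 negative cells. Number 6 and the unnumbered arrays were far lower, with 82.4 and 96.1 in CD15 positive and 203 and 342 in CD15 negative cells. Titles of numbers 2 to 5 are also worded differently from those of number 6 and the unnumbered arrays, so that wording and signal fall together. The summed signal of meningeal, fibroblast and mural markers, cell types that can make Cxcl12, was 516.5 to 2053 in CD15 positive and 723.4 to 5127 in CD15 negative arrays of numbers 2 to 5. It was 443.2 and 322.3 in CD15 positive and 454.8 and 399.5 in CD15 negative cells for number 6 and the unnumbered arrays. The sums did not follow Cxcl12 array by array: number 3, with 516.5 and 723.4, had 1390 and 2010 of Cxcl12, and number 5, with 807.8 and 1547, had 379 and 627. The part of these cells in the Cxcl12 signal was not tested.

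In each of the 5 same-numbered pairs Cxcl12 was lower in the CD15 positive array, by log2 differences of -1.04 to -0.29, which are small beside the spread between numbers. The difference was -0.74 ± 0.71 (SE, limma adjusted p = 0.60) over all conventional arrays and -0.58 ± 0.23 (adjusted p = 0.12) in the paired fit, with the title number as a replicate block. In Math1-GFP tumours Cxcl12 had 242, 123, 77.9 and 71.7 in CD15 positive and 353, 202, 283, 214 and 257 in CD15 negative cells. Of the 4 CD15 positive arrays, 3 lie under every CD15 negative array, with array 1 (242) the exception, and the log2 fold change was -0.96 ± 0.82 (limma adjusted p = 0.82). This SE shares the spread of the conventional arrays. The standard deviation of the log2 values was 0.64 and 0.29 in CD15 positive and negative Math1-GFP cells, against 1.91 and 1.49 in the conventional fractions. Averaged over both models the log2 fold change of Cxcl12 was -0.85 ± 0.54 (limma adjusted p = 0.36). With the replicate block, which takes the spread between numbers out of the shared error, it was -0.77 ± 0.17 and called (adjusted p = 0.0060).

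Between models Cxcl12 was lower in Math1-GFP cells, with a log2 fold change of -1.80 ± 0.54 (SE, 3.48-fold, limma adjusted p = 0.013). Against conventional arrays 2 to 5 alone it was -2.76 ± 0.34 (adjusted p = 7.5e-06), and against the unnumbered arrays and number 6 alone it was 0.13 ± 0.24 (adjusted p = 0.74). A dimmer Cxcl12 probe set, 1417574_at, passed the filter through its conventional values only and is given with no test. It had 5.66 to 18 in Math1-GFP CD15 positive and 2.37 to 12.5 in Math1-GFP CD15 negative cells, against 0.842 to 204 and 6.72 to 153 in the conventional fractions. Of 11 measured meningeal, fibroblast and mural markers, 3 were called lower between models and 0 higher, where 39.2% of all genes were called. Their sums in Math1-GFP cells were 302 to 1220 in the CD15 positive and 275 to 502 in the CD15 negative fraction. Slc6a13 was below the filter. Microglia and macrophage markers also differed between models: 10 of 11 were called lower in Math1-GFP cells (median -1.22). Their sums were 327 to 1540 in CD15 positive and 210 to 501 in CD15 negative Math1-GFP cells, against 650 to 12300 and 270 to 3690 in the conventional fractions. Their part in the differences between models was not tested.

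**Figure D3:**
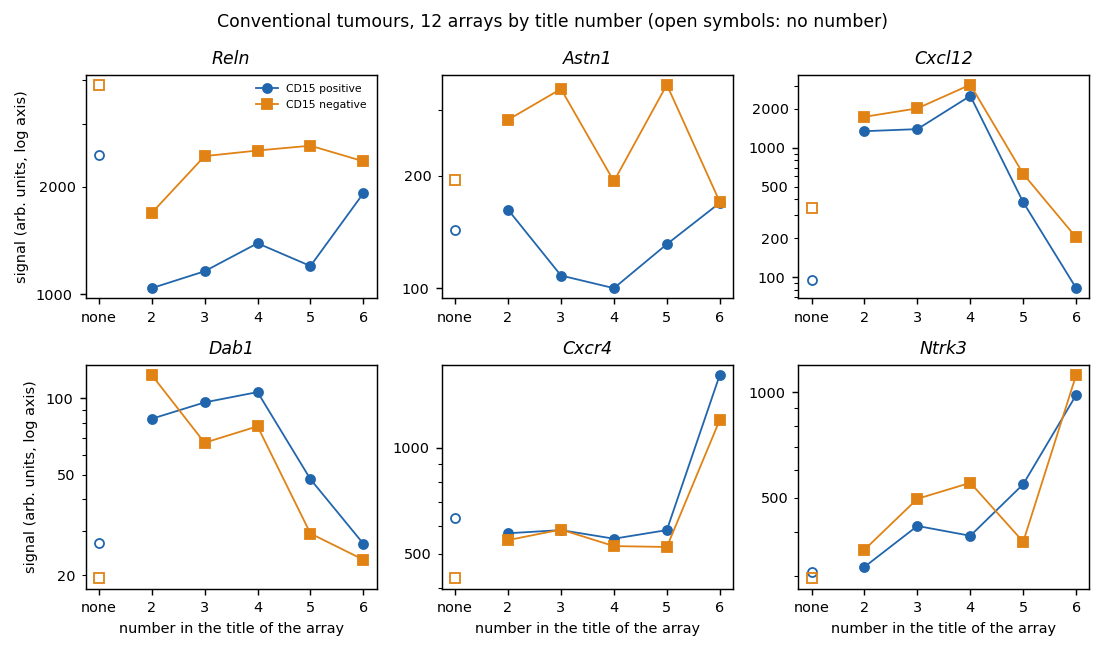
Signal (arbitrary units, log axis) of 6 genes in the 12 conventional arrays by the number in the title; circles are CD15 positive, squares CD15 negative, and open symbols are the unnumbered arrays. Reln and Cxcl12 are lower in the CD15 positive array of each same-numbered pair, Cxcl12 and Dab1 are high in numbers 2 to 4 in both fractions, and Cxcr4 and Ntrk3 are highest in number 6.

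Cxcr4, the receptor of Cxcl12, was high in number 6 of both conventional fractions, at 1610 in the CD15 positive and 1200 in the CD15 negative array. The other conventional arrays had 552 to 633 in CD15 positive and 426 to 586 in CD15 negative cells. In Math1-GFP tumours Cxcr4 had 585, 1580, 1350 and 1140 in CD15 positive and 422, 1240, 1320, 949 and 930 in CD15 negative cells, with arrays 1 and 2 the low ones. The CD15 difference was 0.20 ± 0.31 in conventional and 0.26 ± 0.36 in Math1-GFP tumours, neither called. Between models it was 0.61 ± 0.23 higher in Math1-GFP cells (SE, limma adjusted p = 0.046). That call was lost in 17 of the 21 fits that left out 1 array, with adjusted p up to 0.10. Against conventional arrays 2 to 5 alone Cxcr4 differed by 0.80 (adjusted p = 0.0039), and against the unnumbered arrays and number 6 alone by 0.22 (adjusted p = 0.71).

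Averaged over CD15 fractions, both neurotrophin receptors were higher in Math1-GFP cells. Ntrk3 had 815, 1490, 1840 and 1200 in Math1-GFP CD15 positive and 787, 1420, 1550, 1730 and 1050 in Math1-GFP CD15 negative cells. Conventional cells had 308, 403 and 982 in the CD15 positive and 295, 436 and 1120 in the CD15 negative fraction (lowest, median and highest). The ranges overlap through number 6, the highest conventional array in both fractions, and through Math1-GFP arrays 1 and 2, the lowest of their groups. The log2 fold change was 1.38 ± 0.23 (SE, 2.61-fold, limma adjusted p = 9.2e-05), and the CD15 differences of Ntrk3 were -0.08 ± 0.30 in conventional and 0.02 ± 0.35 in Math1-GFP tumours. Tests of every probe set called 42.6% of all probe sets between models and 5 of the 7 of Ntrk3, with values from 0.06 to 1.5. Among the 32 probe sets of the 10 genes, 15 were called higher and 2 lower, but dim ones can pass the filter through 1 group alone. The counts include 1458020_at of Reln and 1417574_at of Cxcl12, whose differences between models are given above with no test.

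Ntrk2 had 692, 358, 296 and 132 in Math1-GFP CD15 positive and 458, 170, 362, 292 and 103 in Math1-GFP CD15 negative cells. Conventional cells had 62.6, 109 and 219 in the CD15 positive and 71.1, 104 and 133 in the CD15 negative fraction. Arrays 9 and 10 are the lowest Math1-GFP arrays and lie within the conventional range. The log2 fold change was 1.16 ± 0.25 (SE, 2.24-fold, limma adjusted p = 8.9e-04), 1.28 ± 0.36 in CD15 positive cells (adjusted p = 0.014) and 1.05 ± 0.34 in CD15 negative cells (adjusted p = 0.034). Without Math1-GFP array 1 the value in CD15 positive cells was 0.93 and not called (adjusted p = 0.071). The call in CD15 positive cells was also lost in 3 of 16 other settings (adjusted p up to 0.098). In CD15 negative cells the call was lost in 7 of the 21 fits that left out 1 array. It was also lost there in 7 of 16 other settings (adjusted p up to 0.20). Those 7 settings include the title number as a replicate block (0.98, adjusted p = 0.066) and the probe sets averaged (0.71, adjusted p = 0.080). Array 1 also had the highest summed signal of astrocyte markers, 5574, against 2455 to 3208 in the other CD15 positive Math1-GFP arrays. Its sums were the highest of its group for microglia, neutrophil, endothelial, meningeal and Purkinje markers as well, and for granule lineage and postmitotic neuron markers. For oligodendrocyte lineage markers its sum, 2546, was the lowest of the group. In the CD15 negative Math1-GFP group the array with most Ntrk2, array 2 (458), had the lowest astrocyte sum, 1136. Astrocytes express Ntrk2; their part in its signal was not tested. Of 11 measured astrocyte markers, 4 were called higher and 1 lower in Math1-GFP cells, a share near the 39.2% of all genes, and their sums in conventional cells were 1360 to 4680 in the CD15 positive and 1130 to 4380 in the CD15 negative fraction. Sums of oligodendrocyte lineage markers were 2550 to 3920 in CD15 positive and 1630 to 3190 in CD15 negative Math1-GFP cells, against 1180 to 1880 and 1450 to 2080 in the conventional fractions.

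The probe sets of Ntrk2 disagreed on CD15. The dim ones passed the filter largely through the groups where they are high, such as 1435305_at with a mean of 36.4 in Math1-GFP and 3.21 in conventional CD15 positive cells. The signs of the dim probe sets between models are therefore no separate support for the brightest. Between CD15 fractions, averaged over models, 2 were positive (0.22 and 0.40) and 3 negative (-0.63, -0.35 and -0.98). The lowest, 1458622_at, had 104, 28.1, 19.7 and 2.91 in CD15 positive and 280, 40.3, 131, 80.6 and 59.8 in CD15 negative Math1-GFP cells. In conventional cells it had 0.571, 9.99 and 17.2 in the CD15 positive and 28.1, 43.0 and 98.4 in the CD15 negative fraction, with no overlap. Its averaged log2 fold change was -0.98. In conventional cells it passed the filter's level in the CD15 negative fraction only, so this difference is given with no test. The CD15 comparison averaged over models called 7.52% of all probe sets and 3 of these 32, each lower (1 each of Reln, Astn1 and Ntrk2). The Ntrk2 call in this count is that of 1458622_at and is not read as a test. In conventional tumours alone 5.91% of all probe sets and 2 of the 32 were called, 1 each of Reln and Astn1. For 1435305_at and 1458622_at the CD15 positive array was lower in 5 of 5 same-numbered pairs. Their means in conventional CD15 positive cells, 3.21 and 10.7, were under the filter signal of 15.5, against 26.1 and 49.5 in CD15 negative cells. These pair counts are therefore no support for a CD15 difference. The Ntrk2 transcript read by each probe set was not analysed here.

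**Figure D4:**
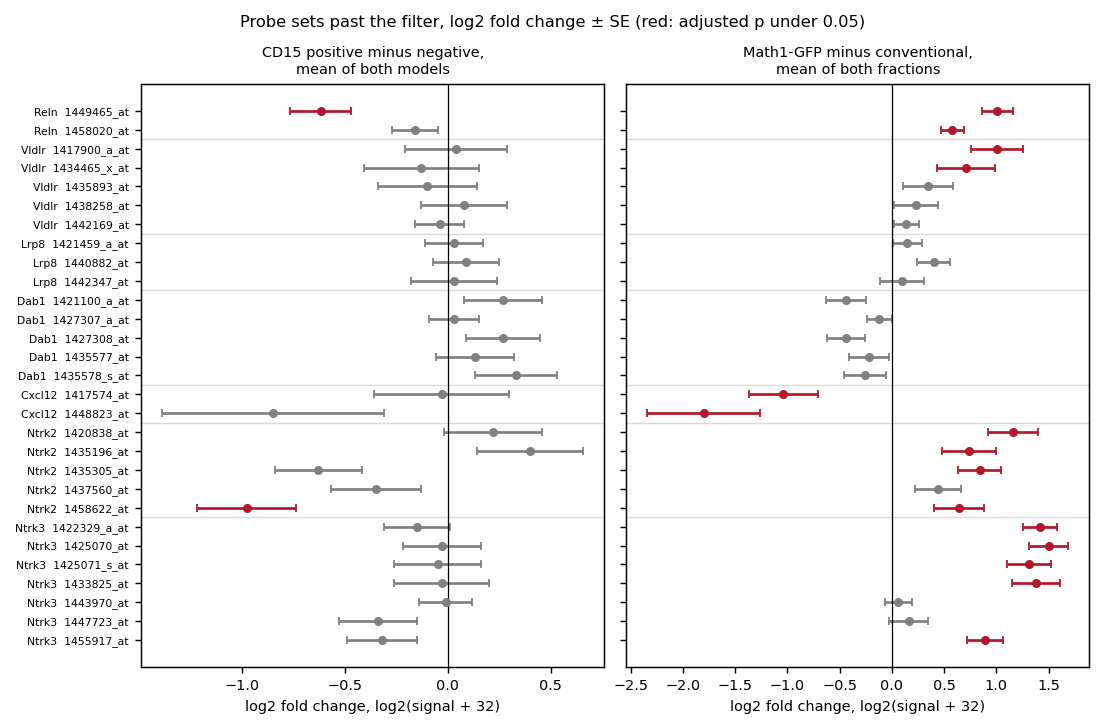
Log2 fold change ± SE of the probe sets past the filter for the 7 genes with a repeated or split reading (2 or more probe sets), between CD15 fractions averaged over models (left) and between tumour models averaged over fractions (right); red marks an adjusted p under 0.05 over every probe set. The 5 Ntrk2 probe sets fall on both sides of 0 for CD15 (-0.98 to 0.40). Dim probe sets can pass the filter through 1 group alone. The red marks of Reln 1458020_at and Cxcl12 1417574_at between models are therefore not read as tests.

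Other genes of the same pathways were counted from 4 lists. Of 30 measured partners of Reelin signalling, 1 was called higher and 4 lower in CD15 positive cells of conventional tumours, where 8.13% of all genes were called. Cdk5r1 (p35, the activator of Cdk5) was lower (-1.11 ± 0.17, SE, limma adjusted p = 5.3e-04), as was doublecortin (Dcx), a microtubule protein of migrating neurons (-1.22 ± 0.19, adjusted p = 6.7e-04). Nde1, a dynein partner that also acts in mitosis, was higher by 0.90 ± 0.14 (adjusted p = 6.7e-04). Of 24 measured genes of granule cell migration, 0 were called higher and 5 lower. They include Sema6a, a semaphorin needed for the switch to radial migration (-1.21 ± 0.21, adjusted p = 0.0013), the adhesion molecule Cntn2 (-1.72 ± 0.44, adjusted p = 0.017) and the polarity protein Pard6a (-0.54 ± 0.11, adjusted p = 0.0059). The list of neurotrophins, their receptors and adaptors had Bdnf, Ntf5 and Shc3 below the filter. Of its 6 measured genes, 1 was called lower, the Trk scaffold Kidins220 (-1.08 ± 0.17, adjusted p = 5.6e-04). None of 7 measured chemokine partners was called there. None of the 4 lists had a called gene in Math1-GFP tumours, where 0.0404% of all genes were called. The list medians were -0.20, -0.21, -0.07 and 0.04, against -0.02 over all genes. Averaged over models, where 9.74% of all genes were called, the counts were 2 higher and 5 lower, 0 and 4, 0 and 1, and 1 and 0. The last was the G protein subunit Gnai2 (0.46 ± 0.14, adjusted p = 0.033).

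Between models the counts were 10 higher and 5 lower among the Reelin partners and 8 and 3 among the migration genes. They were 4 and 1 among the 6 genes of the neurotrophin list and 0 and 1 among the 7 chemokine partners. With 39.2% of all genes called there, nothing particular to the lists is read from these counts. Integrin beta 1 (Itgb1), which can bind Reelin, was higher in Math1-GFP cells by 1.02 ± 0.10 (SE, limma adjusted p = 3.0e-07). Pafah1b3, a catalytic partner of Lis1, was lower (-0.68 ± 0.07, adjusted p = 4.7e-07), and so was Rnf7, of the ubiquitin ligase that degrades Dab1 (-0.47 ± 0.06, adjusted p = 1.1e-05). The Rac activator Tiam1 (0.60 ± 0.11, adjusted p = 2.3e-04) and N-cadherin (Cdh2, 0.43 ± 0.09, adjusted p = 8.3e-04) were higher, and the transcription factor Nfix was lower (-0.54 ± 0.13, adjusted p = 0.0030). The adaptor Gab1 (0.70 ± 0.13, adjusted p = 2.5e-04), Kidins220 (0.62 ± 0.13, adjusted p = 6.8e-04) and the neurotrophin receptor Ngfr (0.85 ± 0.24, adjusted p = 0.0076) were higher. Ackr3, the scavenging receptor of Cxcl12, was lower (-0.77 ± 0.25, adjusted p = 0.021). The list medians were 0.06, 0.05, 0.47 and -0.10, against -0.01 over all genes.

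Across the 21 arrays, the tested gene whose log2 values were most like those of Cxcl12 was Car10 (Pearson r = 0.95), then Socs2 (0.94). For Cxcr4 it was Abcb9 (0.92), for Ntrk3 Osbpl10 (0.93), for Dab1 Cldn11 (0.92), for Reln Pik3c3 (0.91), for Astn1 Sec16a (0.91) and for Ntrk2 Zc3h7a (0.89). Astn2, Vldlr and Lrp8 had nearest genes at 0.85, 0.82 and 0.79. These are the highest of 12367 genes and are given as a description; arrays of a group share model, fraction and, in part, title number.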

How the data were processed

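The deposited table gives linear intensities of 45101 probe sets per array, between 0.0247 and 55079. Software and background correction are not given in the sources used here. Each array, as deposited, had a mean of 150.0 after removal of 2% at each end, with array medians of 22.1 to 32.7 and correlations of 0.922 to 0.978 within groups. No read depth exists; the number of arrays limits the precision.

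Computed here were log2(signal + 32), a filter at the 40th percentile of the mean (signal 15.5), the brightest probe set of each gene, and a limma 3.58.1 fit (R 4.3.3) of 4 group means (17 residual degrees of freedom) with 7 contrasts and two-sided p-values. The platform annotation gives 1 symbol for 34958 probe sets, several for 932 and none for 9211; only the first kind was used, without 64 control probe sets. Groups followed the titles; the unnumbered conventional arrays are replicate 1 by name only.

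The genes and lists were chosen with earlier results of these data known. Named were all 10 genes, the 3 called genes of smallest adjusted p in each pathway list per comparison, and the nearest genes by correlation. Deviations from the group means correlated at 0.53 to 0.79 in the 5 same-numbered conventional pairs and at most 0.27 in other pairs, so the numbers were taken to pair the samples. The main fit did not use this pairing. The replicate block leaves out the unnumbered arrays, and the Math1-GFP groups share no number. Alternatives changed the normalization, pseudocount (1, 128), filter, probe set rule, groups fitted, variance model, array weights, block and arrays used. The procedure was tested on simulated data.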

Additional observations from a re-analysis of the deposited data

Results flagged for a closer look

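Among the 40 sets of values formed by 10 genes in 4 groups, 3 arrays lay far from the rest of their group by Dixon's criterion, which chance meets in about 1 group of 20. All 3 are conventional arrays of number 6. Cxcr4 was highest there in CD15 positive cells, with a log2 value of 10.68 (signal 1610) against 9.38 in the next array, and in CD15 negative cells, with 10.27 (signal 1200) against 9.27. Lrp8 was lowest in the CD15 negative array of number 6, with 5.99 (signal 31.6) against 6.41 in the next.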

How the results depend on the processing

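Of 724 values of 47 gene results under 16 other settings, 672 kept direction and side of the threshold. The number of the 10 genes called in conventional tumours (2) became 1 with probe sets averaged per gene or with only the 2 groups fitted, and 0 with only the unnumbered arrays and number 6, which leaves 2 arrays per fraction. That last setting ended the calls of Astn1 and Reln in the average (-0.21 and -0.47); it also ended those of Reln, Ntrk2 and Ntrk3 in each fraction between models (Ntrk3 1.16 and 1.08, adjusted p = 0.19 and 0.22). It also gave 1 in the average over models (Cxcl12, -1.13, adjusted p = 0.032; main 2), 0 in CD15 positive (main 4) and 1 in CD15 negative cells (main 3) between models; array weights gave 6 in CD15 negative cells. Leaving out 1 array gave 1 to 2 in conventional tumours, 0 to 0 in Math1-GFP tumours, 2 to 2 in the average, 5 to 7 between models, 3 to 6 in CD15 positive and 2 to 4 in CD15 negative cells. The replicate block changed the calls of Cxcl12 in the average over models (-0.77, adjusted p = 0.0060) and Dab1 between models (-0.39, adjusted p = 0.013), both gained, and Ntrk2 in CD15 negative cells between models (0.98, adjusted p = 0.066), lost. Between models the block leaves the spread between conventional numbers out of the error, so the gained Dab1 call is not read as a result.

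Reversed directions were all of results not called, except Cxcl12 between models (0.13 against the unnumbered arrays and number 6). In conventional tumours the CD15 difference of Lrp8 was 0.05 after quantile normalization, 0.00 at the larger pseudocount and 0.51 with the unnumbered arrays and number 6, where Astn2 was 0.20 and Ntrk2 -0.06. With the mean of probe sets Ntrk2 was -0.33 in conventional tumours, -0.21 in Math1-GFP tumours and -0.27 in the average, and Ntrk3 -0.04 in Math1-GFP tumours. Vldlr in Math1-GFP tumours was 0.01 at the larger pseudocount. Lrp8 in the average was -0.01 with array weights and -0.04 with conventional arrays 2 to 5. Between models Astn2 was 0.24 and Dab1 0.36 against the unnumbered arrays and number 6, and Astn2 0.03 with title wording as a block. The cause was not tested.

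Leaving out 1 array at a time turned the sign of these uncalled CD15 differences, with the range over the 21 fits. In conventional tumours they were Cxcr4 (-0.03 to 0.40), Astn2 (-0.18 to 0.01), Lrp8 (-0.10 to 0.11), Ntrk2 (-0.05 to 0.23) and Ntrk3 (-0.29 to 0.15). In Math1-GFP tumours they were Cxcr4 (0.00 to 0.55), Vldlr (-0.37 to 0.52), Lrp8 (-0.07 to 0.39), Ntrk2 (-0.02 to 0.70) and Ntrk3 (-0.15 to 0.24). In the average they were Vldlr (-0.31 to 0.14), Lrp8 (-0.04 to 0.19) and Ntrk3 (-0.13 to 0.09).

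Of all genes, the CD15 difference in Math1-GFP tumours called 5 genes, but 0 to 26 without 1 array, 187 with array weights and 173 with the replicate block; in conventional tumours 606 genes were called without CD15 negative array 5, against 1006, and 0 with the unnumbered arrays and number 6. That setting gave 250 genes in the average, 2621 between models, 818 in CD15 positive and 626 in CD15 negative cells. Testing every probe set called 9894, 6072 and 5473 probe sets in these 3 comparisons between models, and array weights 3951 genes in CD15 negative cells.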
